A study of Mus musculus with 2 samples.

Results

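The nuclear genes that encode subunits of respiratory complexes II, III and IV, cytochrome c and ATP synthase (complex V) were followed in cells labelled RAW264.7, an established mouse line of monocyte/macrophage type that arose from a tumour. They were chosen by gene name, and all 38 of the 38 names were found among the 24034 genes of the deposited table. They comprised 4 genes of complex II, 9 of complex III, the somatic cytochrome c gene Cycs, 10 of complex IV and 14 of ATP synthase. Poly(A) RNA was sequenced in 2 libraries, one from cells treated with SFRS8 siRNA and one from cells given a negative control. Both are labelled with the same line and growth medium, although the text on RNA extraction speaks of adipose material, and both titles carry a mark of 5 d whose starting point is not explained. With 1 library per group there is no replicate check and no test between conditions. The values are FPKM, which scale fragment counts to transcript length and library size, and estimated counts.

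The respiratory chain passes electrons along the inner mitochondrial membrane, and ATP synthase uses the resulting proton gradient to make ATP. Complex II (succinate dehydrogenase) belongs to both the citric acid cycle and the respiratory chain, complex III passes electrons from ubiquinol to cytochrome c, complex IV (cytochrome c oxidase) passes them to oxygen, and complex V is the rotary ATP synthase. All subunits of complex II are encoded in the nucleus, whereas III, IV and V each combine nuclear subunits with some made from mitochondrial DNA. In macrophages, inflammatory activation is known to lower reliance on oxidative phosphorylation in favour of glycolysis, and succinate oxidation by complex II has been tied to inflammatory signalling.

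Sfswap, the mouse gene for SFRS8, stood at 3.38 FPKM in the siRNA-labelled library, against 2.92 FPKM in the control library. The labelled target was therefore not lower, so the libraries are called here by their labels and every direction is relative to the control-labelled one. Estimated counts summed to 55411201 and 54847367 in these libraries. Genes averaging 1 FPKM or more, called expressed genes here, numbered 10214, and their median difference was 0.11 on the log2(FPKM + 1) scale; genes averaging 50 FPKM or more, called abundant genes, numbered 1036. In such bulk samples, fewer cells of a type and less RNA per cell cannot be told apart. Of 12 macrophage markers, all had counts in both libraries, with Lyz2 at 13998 FPKM in the siRNA-labelled library, against 15652 FPKM in the control library. Contractile heart muscle markers held 20594 counts in the siRNA-labelled library, against 7336 in the control library, where 7 of the 17 markers were at 0 and Tpm1 alone held 6886. Red blood cell markers held 423 against 6 counts and fibroblast markers 515 against 115 counts, the siRNA-labelled library against the control library. The part of these transcripts in the values below was not tested.

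Promoter sequences are shown for members at either end of the range of differences described below, Cox5b and Atp5e at the lower end and Cycs and Atp5j at the upper end, and for Cox6a1, a lower member that holds both cores. Nuclear respiratory genes are known as targets of NRF1 and of the ETS factor GABP, and the capitals mark matches to a core of the NRF1 motif (GCATGCG) or of the ETS motif (CCGGAAG) on either strand. Each run is the 250 bases before a RefSeq start site on the gene's strand (GRCm38.p6). These start sites are not always those of the deposited table: the Cox5b, Atp5e and Cox6a1 windows run past the deposited start, and the Atp5j window shown lies inside the deposited gene. Cox5b lies at chr1:36691237-36691486, plus strand; Atp5e at chr2:174464102-174464351, minus strand; Cox6a1 at chr5:115348959-115349208, minus strand. Cycs lies at chr6:50566570-50566819, minus strand, and Atp5j at chr16:84834977-84835226, minus strand, where 1 of its 2 windows is shown. Of those 2, the window picked was the one holding more of the NRF1 and ETS cores, or the first if equal.
Cox5b: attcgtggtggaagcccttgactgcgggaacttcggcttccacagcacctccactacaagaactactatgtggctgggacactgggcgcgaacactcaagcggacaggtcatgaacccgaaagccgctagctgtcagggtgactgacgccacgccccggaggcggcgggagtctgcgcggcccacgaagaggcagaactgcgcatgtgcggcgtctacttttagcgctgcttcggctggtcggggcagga
Atp5e: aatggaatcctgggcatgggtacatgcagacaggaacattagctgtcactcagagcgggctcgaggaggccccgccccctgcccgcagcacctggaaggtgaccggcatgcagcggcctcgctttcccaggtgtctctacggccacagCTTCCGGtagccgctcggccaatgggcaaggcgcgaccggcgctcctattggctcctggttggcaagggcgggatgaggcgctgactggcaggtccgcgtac
Cox6a1: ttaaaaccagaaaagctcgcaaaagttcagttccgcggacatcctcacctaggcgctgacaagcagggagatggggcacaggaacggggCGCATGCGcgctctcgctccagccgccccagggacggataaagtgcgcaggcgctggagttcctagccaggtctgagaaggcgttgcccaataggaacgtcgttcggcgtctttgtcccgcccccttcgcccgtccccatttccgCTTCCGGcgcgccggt
Cycs: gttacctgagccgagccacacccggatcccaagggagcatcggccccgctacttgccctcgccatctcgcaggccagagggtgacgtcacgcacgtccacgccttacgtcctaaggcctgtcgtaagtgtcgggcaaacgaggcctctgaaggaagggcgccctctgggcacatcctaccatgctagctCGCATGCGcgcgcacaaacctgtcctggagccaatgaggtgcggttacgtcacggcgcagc
Atp5j: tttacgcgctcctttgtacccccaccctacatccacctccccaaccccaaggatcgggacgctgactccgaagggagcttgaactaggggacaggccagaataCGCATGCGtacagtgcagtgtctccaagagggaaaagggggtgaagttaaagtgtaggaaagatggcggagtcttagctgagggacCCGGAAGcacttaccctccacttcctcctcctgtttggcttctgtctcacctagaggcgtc
A window was found for 30 of the 38 members by symbol. The NRF1 core was present in 7 of these 30 (23.3%), namely Atp5g2, Atp5j, Atp5k, Atp5l, Cox6a1, Cycs and Sdhb, and in 6.92% of the 7192 expressed genes with a window. The core overlaps its own reverse complement, so 1 stretch can match on both strands, as in Cox6a1, Cycs and Atp5j. The ETS core was present in 9 of the 30 members (30%), against 18.2% of the expressed genes, and the GC-rich SP/KLF core GGGCGG in 7 of 30 (23.3%), against 66.7%. Over all 27025 genes with a window, the shares were 3.43%, 7.83% and 35.4%. The YY1 core AAGATGG was present in 1 member, Atp5j (3.33% of the 30), against 5.37% of the expressed genes. Of the 7 members with the NRF1 core, Cycs and Atp5j were higher and the other 5 lower in the siRNA-labelled library, although Cycs was lower after adjustment for GC content. Over all members 27 of 38 (71.1%) were lower, so the split is no trait of those with the core. A match describes the letters in the window and is no evidence of binding.

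All members were expressed in both libraries, at levels that differed far more between genes than between libraries. Cox8a, a small membrane subunit of complex IV, was highest, with 622 FPKM in the siRNA-labelled library and 660 FPKM in the control library. The lowest were Atp5j, with 18.4 against 14.7 FPKM, and Atp5g1, with 17.2 against 21.7 FPKM. By mean FPKM the members ranked between 124th and 2647th of all genes, and 34 of the 38 had a mean of at least 50 FPKM. Together they made up 1.38% of the summed FPKM in the siRNA-labelled library and 1.46% in the control library. The order of the genes was nearly the same in both libraries (Spearman rho 0.97 across 38 genes, a description).

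**Figure D1:**
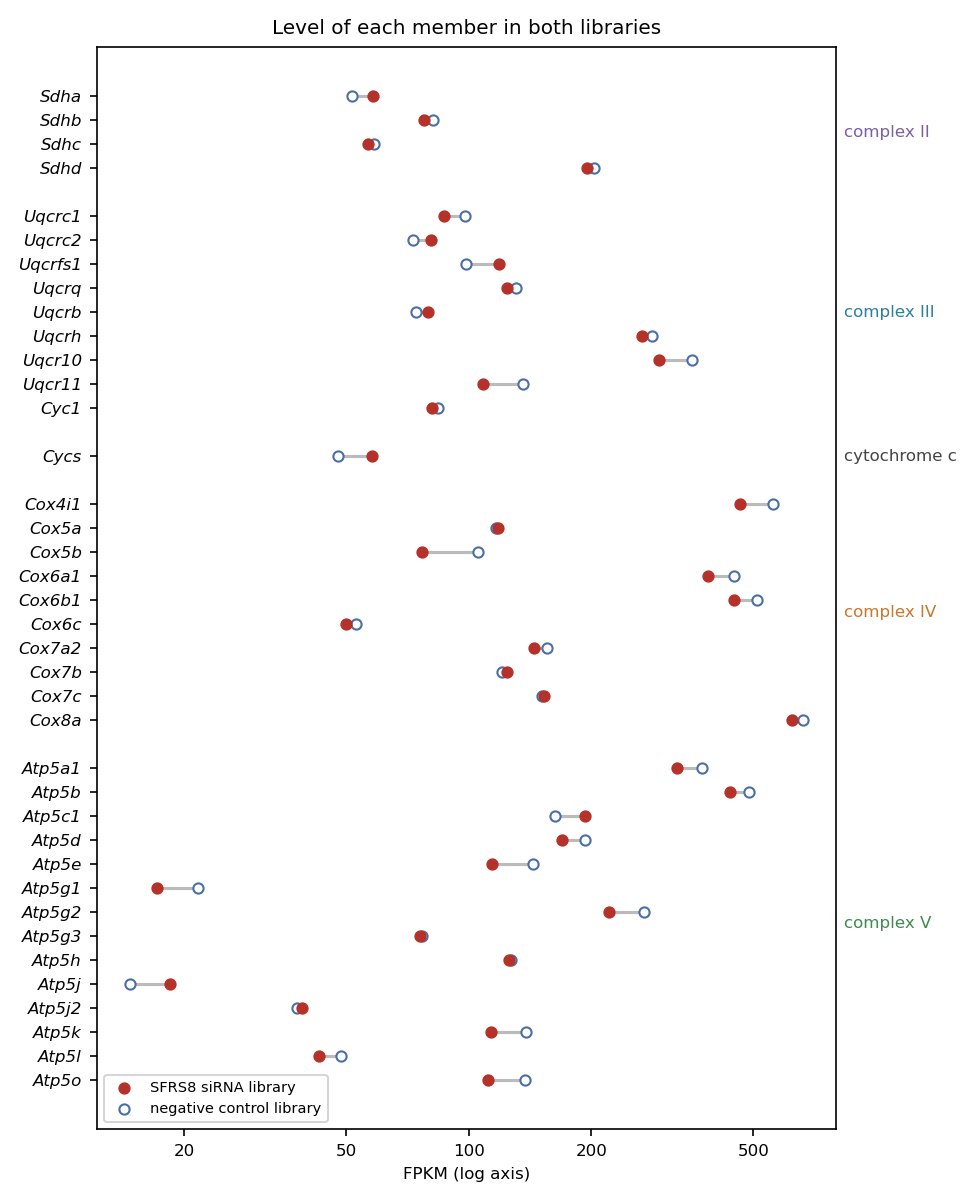
FPKM (log axis) of each member in the SFRS8 siRNA library (filled points) and the negative control library (open points), grouped by complex, with 1 library per group. The span between genes, from 17.2 for Atp5g1 to 622 for Cox8a in the siRNA-labelled library, is much wider than the gap between libraries for any gene.

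Most members had somewhat less RNA in the library labelled SFRS8 siRNA. Subtracting the control from the siRNA-labelled log2(FPKM + 1) gave a value below 0 for 27 of 38 members, with a median of -0.08, whereas 33.1% of expressed genes were below 0. Across genes the difference fell with abundance (Spearman rho -0.22 over 10214 genes). Among abundant genes, 60.9% were below 0 and the median was -0.05; of the 34 members there, 25 were below 0, with a median of -0.08. The members' share is thus well above that of expressed genes and closer to that of abundant genes.

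The differences were small. As deposited, no member reached 1.5-fold, a size passed by 4.91% of expressed genes upward and 2.18% downward. None reached 2-fold, passed by 1.18% and 0.783%. After the adjustment for GC content described below, Cox5b was past 1.5-fold downward, at -0.60. With a limit of 1.2-fold, 9 of the 38 members were lower, against 7.22% of expressed genes. The same limit was passed upward by 3 of the 38, against 28.6% of expressed genes. Of the 34 members that were abundant genes, 8 were lower and 2 higher by this limit, against 11.2% and 9.27% of abundant genes. With no filter on FPKM the shares over all 24034 genes were 16.0% upward and 5.06% downward. The 9 were Cox5b, Atp5e, Atp5g1, Uqcr11, Atp5o, Atp5g2, Atp5k, Cox4i1 and Uqcr10, and the 3 were Atp5j, Cycs and Uqcrfs1. Recentring on the median of expressed genes lowers every difference by 0.11, after which 15 members were past 1.2-fold downward and 0 upward. It lowers the other genes as well, and 77.0% of abundant genes were then below 0. The shares of other genes past 1.2-fold after recentring are not given here, so the shares above are no background for these counts.

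Counting error was smaller than many of these differences. The 95% exact interval of the ratio of counts lay below 1 for 22 members, held 1 for 10 and lay above 1 for 6. Among abundant genes 46.7% had an interval below 1 and 26.9% above 1, and among expressed genes 12.9% and 39.4%. These intervals cover counting error only and not the spread between cultures, which cannot be measured with 1 library per group.

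**Figure D2:**
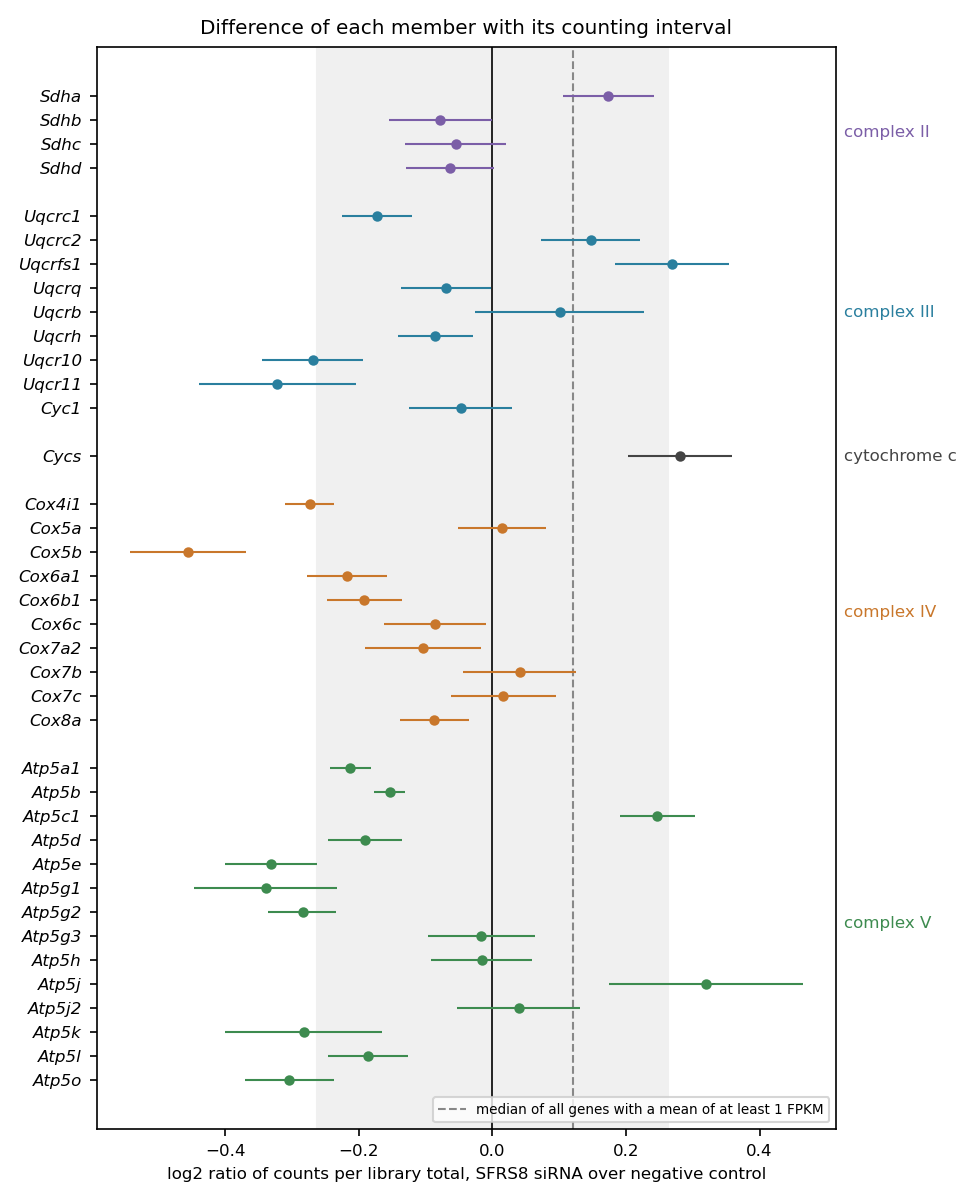
Log2 ratio of counts per library total, SFRS8 siRNA over negative control, for each member, with bars for the 95% exact interval (counting error only). The grey band spans 1.2-fold either way and the dashed line is the median of genes averaging 1 FPKM or more; Cox5b lies farthest to the left and Atp5j farthest to the right.

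In complex II the catalytic subunit was higher and the others close to 0 as deposited. After adjustment for GC content the catalytic subunit was at 0 and the membrane anchors were lower. The iron-sulfur subunit hardly changed, from -0.076 to -0.081. The catalytic Sdha, the flavoprotein that oxidises succinate, stood at 58.3 FPKM in the siRNA-labelled library and 51.6 FPKM in the control library, a difference of 0.17 and a count ratio of 1.13 (1.08 to 1.18), and its adjusted difference was 0.0021. Sdhb, the iron-sulfur subunit, stood at 77.4 against 81.6 FPKM. The membrane anchors Sdhc and Sdhd stood at 56.5 against 58.7 FPKM and at 195 against 203 FPKM. Adjusted differences were -0.08 for Sdhb, -0.22 for Sdhc and -0.20 for Sdhd, with a median over the complex of -0.14, and recentring gave a median of -0.17. The summed counts of the 4 genes were 51362 and 50854, close to equal once scaled to the library totals (0.975 to 1.02).

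As deposited, Uqcrfs1 and Uqcrc2 of complex III were higher in the siRNA-labelled library and its small accessory subunits mostly lower. Uqcrfs1, the Rieske iron-sulfur protein that accepts electrons from ubiquinol, stood at 119 FPKM in the siRNA-labelled library and 98.3 FPKM in the control library, a difference of 0.27 and a count ratio of 1.205 (1.14 to 1.28). That difference was 0.16 recentred and 0.10 after adjustment for GC content, both short of 1.2-fold. Uqcrc2, a core protein, stood at 80.9 against 73.0 FPKM, a difference of 0.15 that became -0.14 after adjustment for GC content. Its partner core protein Uqcrc1 went the other way, at 87.0 against 98.02 FPKM, a difference of -0.17. The catalytic cytochrome c1 (Cyc1) stood at 81.4 against 84.1 FPKM, with an interval of the ratio that held 1.

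Among the 5 small subunits of complex III, 4 were below 0 and 2 of them passed 1.2-fold. Of abundant genes, 60.9% were below 0 and 11.2% passed 1.2-fold downward. Uqcr11 stood at 109 FPKM in the siRNA-labelled library and 136 FPKM in the control library, a difference of -0.32. Its transcript shares 38.4% of its length with Gm16418 (1067 against 1032 counts). With those counts added, the log2 ratio was -0.258, short of 1.2-fold. Uqcr10 stood at 294 against 354 FPKM, a difference of -0.27. The hinge protein Uqcrh, at 266 against 282 FPKM, and Uqcrq, at 124 against 130 FPKM, differed less, and Uqcrb stood at 79.5 against 74.1 FPKM. Uqcrb was above 0 as deposited but below it once recentred (-0.0086) or adjusted for GC content (-0.23). Over the 9 genes of complex III the median difference was -0.07.

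Cycs, which carries electrons between complexes III and IV and also triggers apoptosis when released from mitochondria, had one of the largest positive differences. It stood at 57.9 FPKM there, against 47.6 FPKM in the control library, a difference of 0.28 and a count ratio of 1.21 (1.15 to 1.28). Its principal transcript has a GC content of 40.8%, the lowest of all members, and after adjustment for GC content the difference was -0.08, on the other side of 0. Of that transcript 33.7% is also found in other genes, and summing their counts with those of Cycs gave a log2 ratio of 0.26.

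The members of complex IV were level or lower in the siRNA-labelled library as deposited, unlike some of its heart and muscle forms described below. Of 10 genes, 7 were below 0 and the median was -0.09, where 60.9% of abundant genes were below 0. In all, 165519 counts in the siRNA-labelled library and 183274 in the control library gave a count ratio of 0.894 (0.882 to 0.906). Cox5b, a zinc-binding subunit on the matrix side, had the most negative difference of all members, at 76.9 FPKM in the siRNA-labelled library and 105 FPKM in the control library. The difference was -0.45, with a count ratio of 0.729 (0.687 to 0.774), and after adjustment for GC content it was -0.60. The Cox5b transcript shares 45.1% of its length with Gm11273 (1339 against 1525 counts), and adding those counts to its own gave a log2 ratio of -0.42.

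The most abundant members of complex IV were also lower. Cox4i1, the regulatory subunit found in most tissues, stood at 463 FPKM in the siRNA-labelled library and 559 FPKM in the control library, a difference of -0.27. Cox6a1 stood at 386 against 448 FPKM and Cox6b1, which faces the intermembrane space, at 448 against 511 FPKM, with differences of -0.22 and -0.19. Cox8a had a smaller difference of -0.09. Cox7a2, at 145 against 155 FPKM, and Cox6c, at 49.9 against 52.8 FPKM, were within 0.11 of 0 as deposited. After adjustment for GC content Cox7a2 was at -0.16 and Cox6c at -0.29. Cox5a (118 against 117 FPKM), Cox7b (124 against 121 FPKM) and Cox7c (153 against 151 FPKM) were nearly equal in both libraries as deposited, but lay below 0 when recentred and, at -0.14, -0.29 and -0.21 in that order of genes, after adjustment for GC content.

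Several complex IV subunits have heart and muscle forms from separate genes, and of these Cox6a2 and Cox8b had far more counts in the siRNA-labelled library. Cox6a2, the heart and muscle form, stood at 15.6 FPKM in the siRNA-labelled library and 5.80 FPKM in the control library, a count ratio of 2.69 (1.99 to 3.68), and made up 3.90% and 1.28% of the summed FPKM of Cox6a1 and Cox6a2. Cox8b had 57 counts in the siRNA-labelled library and 0 in the control library, with a lower exact limit of 3.28 on the count ratio, and 4.70-fold higher when the control is set to a floor of 12 counts (3 read pairs). Cox7a1 differed little, at 11.4 against 10.2 FPKM, and Cox4i2, a form known from lung, stood at 1.05 against 1.74 FPKM from 51 against 84 counts. Heart muscle markers such as Myl2 (14.7 against 0 FPKM) were higher in the same library, and their part in the Cox6a2 and Cox8b values was not tested. Cox6b2 and the testis cytochrome c gene Cyct were not analysed here.

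Among the complexes, the members of ATP synthase had the lowest median. Of these 14 genes, 11 were below 0 and the median was -0.18, where 33.1% of expressed genes and 60.9% of abundant genes were below 0. Together they held 326324 counts in the siRNA-labelled library and 359764 in the control library, a count ratio of 0.898 (0.889 to 0.906). The 14 leave out other subunits, such as Atp5f1 (subunit b), whose difference was 0.26. In the list of other subunits and associated proteins described below, 8 of 11 genes (72.7%) were above 0 and 3 below. That is near the 66.9% of expressed genes above 0. In the catalytic head and central stalk, the alpha subunit Atp5a1 stood at 324 against 375 FPKM and the catalytic beta subunit Atp5b at 438 against 486 FPKM, with differences of -0.21 and -0.15. The small central stalk subunits Atp5d and Atp5e stood at 169 against 193 FPKM and at 114 against 144 FPKM, with differences of -0.19 and -0.33. Atp5c1, the gamma subunit that forms the rotating shaft, stood apart from these at 193 FPKM in the siRNA-labelled library and 162 FPKM in the control library, a difference of 0.25 and a count ratio of 1.19 (1.14 to 1.23). Its difference was 0.14 recentred and 0.056 after adjustment for GC content.

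The rotor ring is built from subunit c, whose mature protein is the same from the 3 genes Atp5g1, Atp5g2 and Atp5g3. Atp5g2 stood at 221 FPKM in the siRNA-labelled library and 269 FPKM in the control library, a difference of -0.28. Atp5g1 stood at 17.2 against 21.7 FPKM, a difference of -0.32, and Atp5g3 at 76.1 against 76.9 FPKM, a difference of -0.02. Atp5g3 therefore supplied 24.2% of the summed subunit c FPKM in the siRNA-labelled library and 20.9% in the control library, and Atp5g2 supplied 70.3% and 73.2%. Sequence sharing limits these values: 88.2% of the Atp5g2 transcript is found in Gm10175 and Gm10231, and genes that share sequence with Atp5g1 held 67.8% and 56.4% as many counts as Atp5g1 itself. With those genes summed in, the log2 ratios were -0.27 for Atp5g2 and -0.24 for Atp5g1. Adjusted for GC content without that summing, the differences were -0.26 for Atp5g2, -0.54 for Atp5g1 and -0.12 for Atp5g3.

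The peripheral stalk and the remaining membrane subunits of ATP synthase were mixed. Atp5o, which joins the stalk to the head, stood at 111 FPKM in the siRNA-labelled library and 138 FPKM in the control library, a difference of -0.30. Atp5h, subunit d of the stalk, was level as deposited, at 126 against 127 FPKM, and at -0.13 after adjustment for GC content. Atp5j, coupling factor 6 of the stalk, had the largest positive difference of all members despite its low level, at 18.4 against 14.7 FPKM, a difference of 0.30 and a count ratio of 1.25 (1.13 to 1.38). Gabpa, which encodes a subunit of GABP, overlaps the start of Atp5j on the opposite strand and was also higher, at 3.59 against 2.51 FPKM. They share 15.3% of the Atp5j transcript, and reads of the overlap cannot be told apart since the strandedness of the libraries is not given. Atp5k and Atp5l, subunits e and g that help the enzyme form dimers, stood at 114 against 138 FPKM and at 42.8 against 48.6 FPKM, while Atp5j2 (subunit f) stood at 38.9 against 37.8 FPKM, a difference of 0.04 that turned to -0.07 recentred and -0.08 adjusted for GC content.

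The members' differences followed the GC content of their transcripts, as those of other genes did. Spearman rho was -0.53 across the 38 members and -0.47 across the 10214 expressed genes, as a description of genes that share their libraries. Of the 19 members with the higher GC content (50.5% to 59.3%), 18 were below 0, with a median of -0.19. Of the 19 with the lower GC content (40.8% to 50.2%), 9 were below 0, with a median of 0.02. The member above 0 in the GC-rich group was Atp5j. The members' median GC content of 50.3% was close to the 50.9% of expressed genes, and after adjustment for the trend 34 of 38 members were below 0, with a median of -0.20, against 75.3% and -0.11 for abundant genes. The 4 above 0 were Atp5j, Uqcrfs1, Atp5c1 and Sdha.

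**Figure D3:**
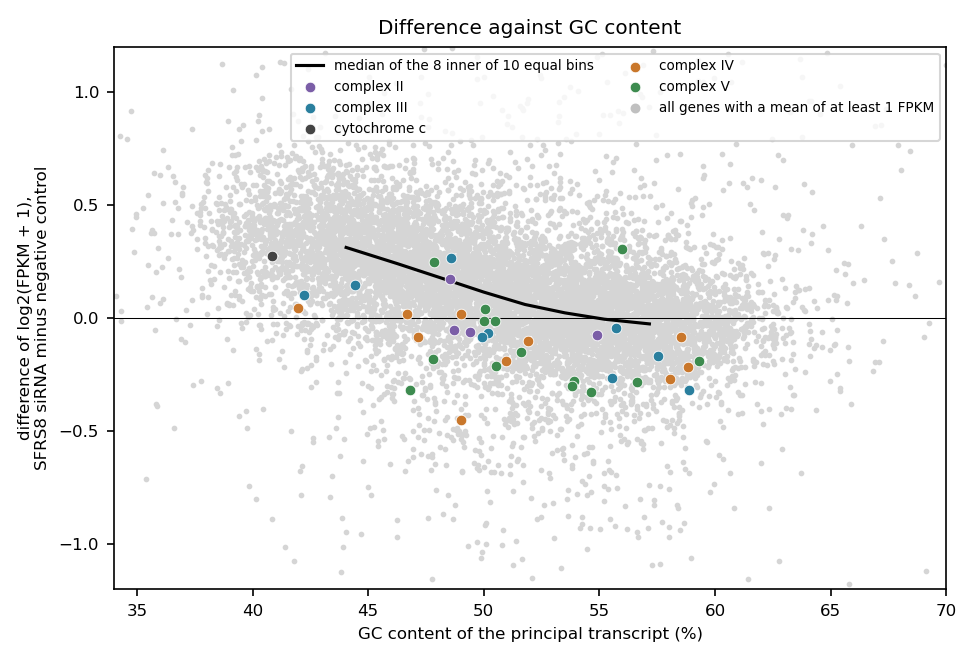
Difference of log2(FPKM + 1), SFRS8 siRNA minus negative control, against the GC content of the principal transcript (%), for expressed genes (1 FPKM or more on average, grey) and for the members by complex. The black line joins the medians of the 8 inner of 10 equal bins of those genes, 157 genes lie outside the axes, and most members lie below the line.

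The mitochondrially encoded subunits of complexes III, IV and V were on the other side of 0 as deposited. All 6 were above 0, as were 66.9% of expressed genes, and their median of 0.12 was close to the 0.11 of expressed genes. When recentred, 3 of them lay below 0 around a median of 0.01, and adjustment for GC content gave a median of -0.27. mt-Cytb, the cytochrome b of complex III, stood at 533 FPKM in the siRNA-labelled library and 395 FPKM in the control library, a difference of 0.43. mt-Co2 stood at 2515 against 2180 FPKM and mt-Co3 at 2365 against 2268 FPKM, while mt-Co1, the catalytic subunit of complex IV, was nearly level at 12313 against 12190 FPKM. The 2 ATP synthase subunits mt-Atp6 and mt-Atp8 stood at 351 against 336 FPKM and at 3027 against 2679 FPKM.

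Other nuclear genes of the pathway gave medians nearer 0 or above it. The 35 nuclear subunits of complex I had a median of -0.04, with 22 below 0, 5 past 1.2-fold upward (Ndufs1, Ndufb5, Ndufa5, Ndufv2 and Ndufs4) and 0 downward, where 28.6% of expressed genes passed upward and 7.22% downward. The median over 11 other subunits and associated proteins was 0.14; Atp5f1, subunit b of the peripheral stalk, stood at 71.3 FPKM in the siRNA-labelled library and 59.2 FPKM in the control library, while Cox7a2l, which joins complexes III and IV, was level at 342 against 343 FPKM. Assembly factors had medians of 0.11 over 4 genes of complex II, -0.02 over 5 of complex III, 0.08 over 25 of complex IV and cytochrome c, and 0.05 over 3 of ATP synthase; those of II, IV and V were below 0 when recentred. In the complex IV list 3 of 25 were past 1.2-fold upward and 1 downward, both below the shares of expressed genes (28.6% and 7.22%). Hccs, which attaches heme to cytochrome c, stood at 3.38 against 2.19 FPKM, a count ratio of 1.54 (1.27 to 1.88), and Lrpprc, which stabilises mitochondrial mRNAs, at 5.75 against 4.06 FPKM (1.41, 1.26 to 1.58). Pet100, a complex IV assembly factor, stood at 7.35 against 9.28 FPKM.

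Transcriptional regulators of these genes had a median of 0.25 over 9 expressed genes, 4 of them past 1.2-fold upward and 1 downward (28.6% and 7.22% of expressed genes), and a median of 0.041 after adjustment for GC content. Yy1 stood at 10.2 FPKM in the siRNA-labelled library and 6.18 FPKM in the control library, a count ratio of 1.65 (1.49 to 1.83). Tfam, which maintains and transcribes mitochondrial DNA, stood at 3.76 against 2.55 FPKM and Sp1 at 8.32 against 5.89 FPKM. Nrf1 was level at 2.08 against 2.10 FPKM, Esrra, a nuclear receptor of energy metabolism, stood at 17.5 against 20.2 FPKM, and the coactivator Pprc1 at 4.19 against 5.30 FPKM. Ppargc1a, the coactivator known for driving mitochondrial biogenesis, had 10 against 4 counts, too few to compare. These lists have fewer and less abundant genes than the members, and the differences between lists were not tested.

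**Figure D4:**
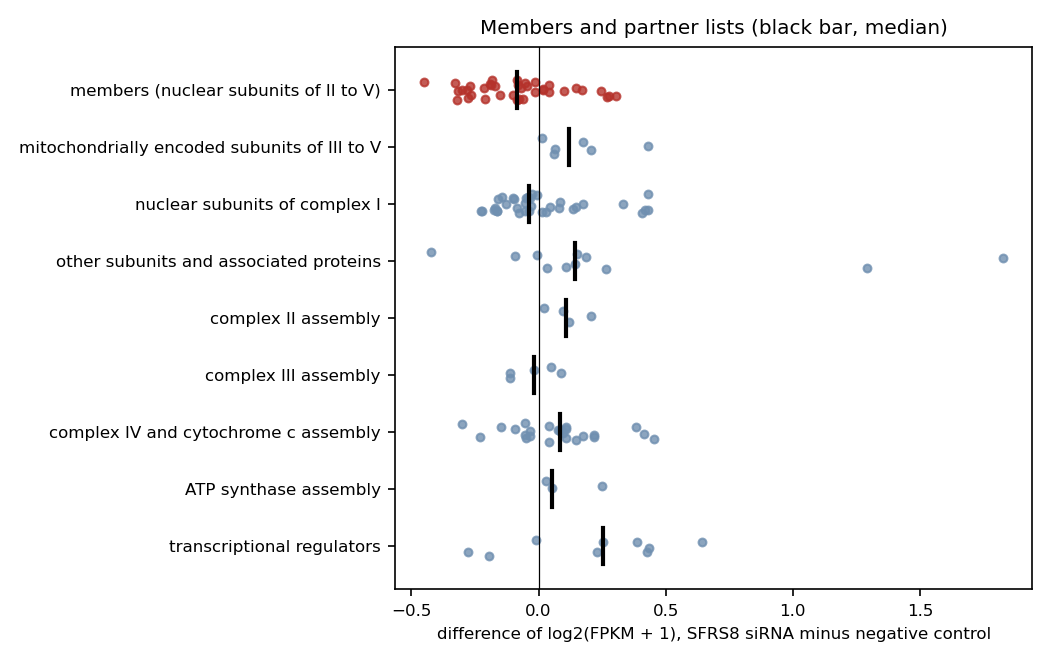
Difference of log2(FPKM + 1), SFRS8 siRNA minus negative control, for each member and for each gene of the partner lists averaging 1 FPKM or more; points are genes, spread vertically for legibility, and black bars are medians. The members' median is -0.08, that of mitochondrially encoded subunits 0.12 and that of complex I -0.04, and the 2 points far to the right are Cox6a2 and Cox8b.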

How the data were processed

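Cells of the RAW264.7 line gave 2 poly(A) libraries, grouped by treatment label. Per the submitters' processing notes, HISAT2 2.0 and StringTie 1.3.0 were used; the build, annotation and strandedness behind the values were not given. FPKM values were deposited by the authors, per the file headers. Estimated counts were also deposited; 45.1% and 42.7% of values from 1 to 20 were multiples of 4, so 4 counts were taken as about 1 read pair. Every value column matched a library by name, leaving 0 unmatched.

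Differences are siRNA-labelled minus control log2(FPKM + 1), over genes averaging 1 FPKM or more; this understates differences of low genes. Count ratios, scaled to library totals, carry 95% exact Clopper-Pearson limits given the sum of both counts, each first divided by 4. With 1 library per group no test was run. All 24034 identifiers occur in GENCODE vM21 (GRCm38), 35 of 38 members with identical coordinates; GC content and shared sequence (blastn 2.17.0; 98% identity, 100 bases or longer) were read from principal transcripts. The GC trend was a lowess fit with a span of 0.3 (statsmodels 0.14.6, Python 3.11.15). Intervals and fold limits were tried on simulated counts that took the same 4 counts per read pair and held planted changes of 1.5-fold. That trial could check neither the value of 4 nor the spread between cultures. Members and lists were chosen with earlier results of these data known. The rule for names took every member, Sfswap, the tissue forms and, from each partner list, the 4 largest differences and the 2 most abundant genes, of which a selection is given. Nrf1, Pprc1, Ppargc1a, Ndufs4 and neighbouring genes were named outside it, after their values were seen.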

Additional observations from a re-analysis of the deposited data

How the results depend on the processing

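With 1 library per group, no alternative speaks to the spread between cultures. Pseudocounts of 0.1 and 5, counts scaled to the library total, ps-named copies summed in, and (added after the data were seen) all genes sharing sequence summed in moved each of the 38 members by less than its own counting error; the last gave 6 members past 1.2-fold downward and 2 upward. With a pseudocount of 5, 0 members passed 1.2-fold upward, and with limits of 1.5-fold and 2-fold 0 passed in either direction as deposited. After adjustment for GC content Cox5b, at -0.60, was past 1.5-fold downward. Recentring gave 15 members past 1.2-fold downward and 0 upward, and adjustment for GC content 13 and 1. The shares of other genes past 1.2-fold under either setting are not given here, so these counts have no background beside them. Recentred medians were -0.19 over members, -0.17, -0.18, -0.20 and -0.29 for complexes II, III, IV and V, 0.012 for mitochondrially encoded subunits, 0.032 for other subunits, -0.000313, -0.13, -0.026 and -0.056 for assembly of II, III, IV and V, 0.14 for regulators and -0.15 for complex I. Medians adjusted for GC content were -0.20 over members, -0.14, -0.18, -0.23 and -0.24 for complexes II, III, IV and V, -0.10 for complex I, 0.072 for other subunits, -0.27 for mitochondrially encoded subunits, -0.15, -0.091, -0.055 and 0.011 for assembly of II, III, IV and V, and 0.041 for regulators. The median of regulators was 0.39 and 0.12 with pseudocounts of 0.1 and 5 and 0.36 in scaled counts. The difference of Cycs reversed to -0.075 after adjustment for GC content; the adjustment subtracts the trend at its low GC content. No paired analysis was possible because each group has 1 library.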

Other observations

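Several members begin close to a protein-coding gene on the opposite strand. With start sites at most 500 bases apart in the deposited coordinates, 11 of 38 members (28.9%) had such a neighbour, against 16.0% of the 8825 protein-coding genes averaging 1 FPKM or more. For 8 members that neighbour averaged 1 FPKM or more, and in 5 of the 8 pairs both genes lay on the same side of 0. The matching share over the pairs of other genes is not given here, so no link between neighbours is read from that count. Sdhd lies beside Timm8b, a mitochondrial import factor, with differences of -0.06 for Sdhd and -0.05 for Timm8b. Uqcr10 (-0.27) lies beside Zmat5 (-0.23), Uqcrh (-0.08) beside Lrrc41 (-0.23), Sdha (0.17) beside Ccdc127 (0.04) and Atp5c1 (0.25) beside Kin (0.48). The other 3 pairs parted. Emc8, beside Cox4i1, stood at 2.31 FPKM in the siRNA-labelled library and 1.36 FPKM in the control library, a difference of 0.49, where Cox4i1 had -0.27. Kctd2 (0.39) lies beside Atp5h (-0.01), and Haus1 (0.25) beside Atp5a1 (-0.21). Where neighbouring transcripts overlap, their reads cannot be told apart without strand.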
